A study of Mus musculus with 11 samples.

Results

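The genes described here are 10 genes of monocyte recruitment, chosen by symbol from the 46983 genes of the deposited count table. They are 5 chemokine genes (Ccl2, Ccl7, Ccl8, Ccl12 and Ccl9), the chemokine receptor gene Ccr2, the macrophage growth factor gene Csf1, and 3 genes used as markers of inflammatory monocytes in mice (Ly6c2, Plac8 and Chil3). All 10 were in the count table once, and all 10 passed the filter on low counts. They were measured by RNA sequencing of whole aortic valves from wild type mice killed 48 hours after surgery, with 1 mouse per library. A wire passed in vivo to strip endothelium from the valve was the injury, and the sham operation was its control. The groups were young injured valves (3 mice), young sham valves (3 mice), aging injured valves (2 mice) and aging sham valves (3 mice). The young groups had an age of 3 to 4 months and the aging groups of 16 to 18 months.

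Monocytes leave the bone marrow and enter damaged tissue along gradients of CC chemokines, and CCL2 acting on the receptor CCR2 is the best known of these routes in mice. Cells at a site of injury, among them endothelial cells, fibroblasts and macrophages, release CCL2 and its relatives, and CCR2 is carried by the Ly6C-high, or classical, monocytes that answer. CSF1, acting on CSF1R, supports the survival and growth of the macrophages that such monocytes can become.

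Ccl2 was the member that rose after injury when both ages were averaged, by 4.23-fold, and it was higher in all 5 injured valves than in any of the 6 sham valves. Ccl7 followed the same order within each age. The receptor gene Ccr2 was 2.59-fold higher in young injured than in young sham valves but 1.01-fold in aging valves, while Ccl8 was 2.77-fold higher in aging injured than in aging sham valves and 1.54-fold in young ones. Those single-age differences did not pass the threshold of edgeR's test (adjusted p below 0.1 and a change of more than 2-fold). The highest and lowest libraries for Csf1 differed 1.33-fold, and the marker genes Ly6c2, Plac8 and Chil3 were at or below 3.19 CPM (counts scaled to library size and between libraries by TMM) in every library but 1, in which Chil3 was higher.

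Of the chemokine genes, 4 lie in a cluster on mouse chromosome 11 (mm10), all on the plus strand. Their order is Ccl2 (ENSMUSG00000035385, 82035571 to 82037453), Ccl7 (ENSMUSG00000035373, 82045712 to 82047525), Ccl12 (ENSMUSG00000035352, 82101845 to 82103400) and Ccl8 (ENSMUSG00000009185, 82115185 to 82116799). Ccl9 (ENSMUSG00000019122, 83572919 to 83578636, minus strand) lies in another cluster of the same chromosome, beside its relative Ccl6. Ccr2 (ENSMUSG00000049103) spans 124101950 to 124113557 of chromosome 9. Csf1 (ENSMUSG00000014599, 107741048 to 107760469) and Chil3 (ENSMUSG00000040809, 106147554 to 106167564) are on chromosome 3, Plac8 (ENSMUSG00000029322, 100553725 to 100572245) is on chromosome 5 and Ly6c2 (ENSMUSG00000022584, 75108158 to 75111970) on chromosome 15. All are annotated as protein coding, and counts were given for whole genes, so exons and introns are not separated.

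The 100 bases before the annotated start are shown for the chemokine genes that the RefSeq promoter table (GRCm38.p6) held, since neighbours in these clusters had different injury values, and for Ccl6, whose pattern over the libraries was the one most like that of Ccl9. Sequences run 5′ to 3′ on the gene's own strand, and capitals mark TATAAA, the core of a TATA box.
Ccl8, chr11:82115085-82115184, plus strand: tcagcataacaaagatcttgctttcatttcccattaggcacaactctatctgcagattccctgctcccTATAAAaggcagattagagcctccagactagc
Ccl12, chr11:82101745-82101844, plus strand: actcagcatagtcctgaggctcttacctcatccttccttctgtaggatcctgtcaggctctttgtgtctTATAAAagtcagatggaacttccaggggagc
Ccl9, chr11:83578637-83578736, minus strand: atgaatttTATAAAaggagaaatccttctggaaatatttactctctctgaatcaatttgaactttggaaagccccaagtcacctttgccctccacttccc
Ccl6, chr11:83593088-83593187, minus strand: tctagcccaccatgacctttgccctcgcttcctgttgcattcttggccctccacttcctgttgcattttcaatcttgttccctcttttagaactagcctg
In Ccl8 and Ccl12 the motif began 32 and 31 bases before the start, and in Ccl9 92 bases before it. The search covered TATAAA and its reverse complement TTTATA over 250 bases before the start, and 12.4% of 32851 promoters in the table held a match. Of the 10 genes, 8 had a promoter in the table (not Ccl2 or Ccl7) and 3 of those held TATAAA. A match describes letters and is not a site.

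Ly6c2 has a near-identical neighbour, Ly6c1, which endothelial cells also express. Reads of one can be counted for the other where the transcripts are identical. The first 90 coding bases of both reference transcripts (GRCm38, chromosome 15) are shown. Capitals mark the 6 bases at which they differ, and no run of 50 bases within this stretch is identical.
Ly6c2: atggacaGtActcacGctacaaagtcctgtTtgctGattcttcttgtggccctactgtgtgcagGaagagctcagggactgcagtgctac
Ly6c1: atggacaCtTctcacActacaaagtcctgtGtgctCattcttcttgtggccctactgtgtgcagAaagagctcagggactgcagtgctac
Of the 773 windows of 50 bases in the Ly6c2 transcript, 255 (33.0%) occurred in another gene's transcript, 252 of them in Ly6c1. For Chil3 29.4% of windows were shared, mainly with Chil4. For Ccr2 3.73% were shared, and for Ccl9 2.0%. The other 6 genes shared 0 windows. The counts of Ly6c2 and Chil3 are therefore uncertain, since how the authors' counting treated shared reads, and whether it used strand, is not given in the sources used here.

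The libraries held 27124000 to 36353474 counts each. Young sham 1, aging injured 1 and aging injured 2 had counts for 18641 to 19015 genes and the other 8 libraries for 20411 to 22533, so low detection cannot be told apart from injury in aging valves, or from age in injured valves. By Xist against Y-linked transcripts, females were 2 of 3 young injured, 1 of 3 young sham, 2 of 2 aging injured and 2 of 3 aging sham mice. Markers of valve interstitial cells and fibroblasts, which the list does not separate, summed to 9029 to 18058 CPM. Cardiomyocyte markers were also present at 6883 to 30309 CPM in every library. Smooth muscle markers summed to 7025 to 18043 CPM in young and 17043 to 23469 CPM in aging libraries. Their log2 age difference was positive for 5 of 6 genes in sham and in injured valves, against 52.3% and 46.4% of all genes tested. After injury it was positive for 0 of 6 in young and 1 of 6 in aging valves, against 51.5% and 48.6%. The part of smooth muscle in the differences was not tested. The pan-leukocyte markers summed to 103 to 292 CPM. In bulk tissue, fewer cells of a type and less RNA per cell cannot be told apart.

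Compared per length, on the deposited RPKM scale, Csf1 had the highest median level of the 10 genes, 33.6 RPKM over the 11 libraries (29.9 to 38.8). The chemokine genes Ccl8, Ccl9, Ccl7, Ccl12 and Ccl2 had medians of 11.3, 7.18, 6.82, 5.41 and 5.36 RPKM. Ccl8 ranged over 4.6 to 36.9 RPKM and Ccl2 over 1.61 to 33.5 RPKM, and the ranges of all 5 overlapped, so that the order among them is not set beyond the spread. Ccr2 came next with 1.96 RPKM (1.12 to 5.38). Ly6c2, Plac8 and Chil3 had medians of 1.03, 0.75 and 0.553 RPKM, again with overlapping ranges. The value 0.133 RPKM was repeated in 61 to 318 genes per library and is a minimum of the table, at which Chil3 stood in young sham 2 and Plac8 in young sham 1.

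The order depended on the group. In young injured valves Ccl2 averaged 21.5 ± 10.4 RPKM (SD, n = 3) and Ccl8 10.7 ± 4.56 RPKM, whereas in aging injured valves Ccl2 averaged 10.7 ± 4.20 RPKM (n = 2) and Ccl8 32.0 ± 6.95 RPKM. In young sham valves Ccl2 ranged over 1.61 to 5.36 RPKM with a mean of 4.03 RPKM, and Ccl8 averaged 6.76 ± 2.74 RPKM (n = 3), and in aging sham valves 3.10 ± 1.38 RPKM and 11.8 ± 4.50 RPKM (n = 3). Ccl2 thus stood above Ccl8 in the mean of young injured valves and below it in the means of the other 3 groups.

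**Figure D1:**
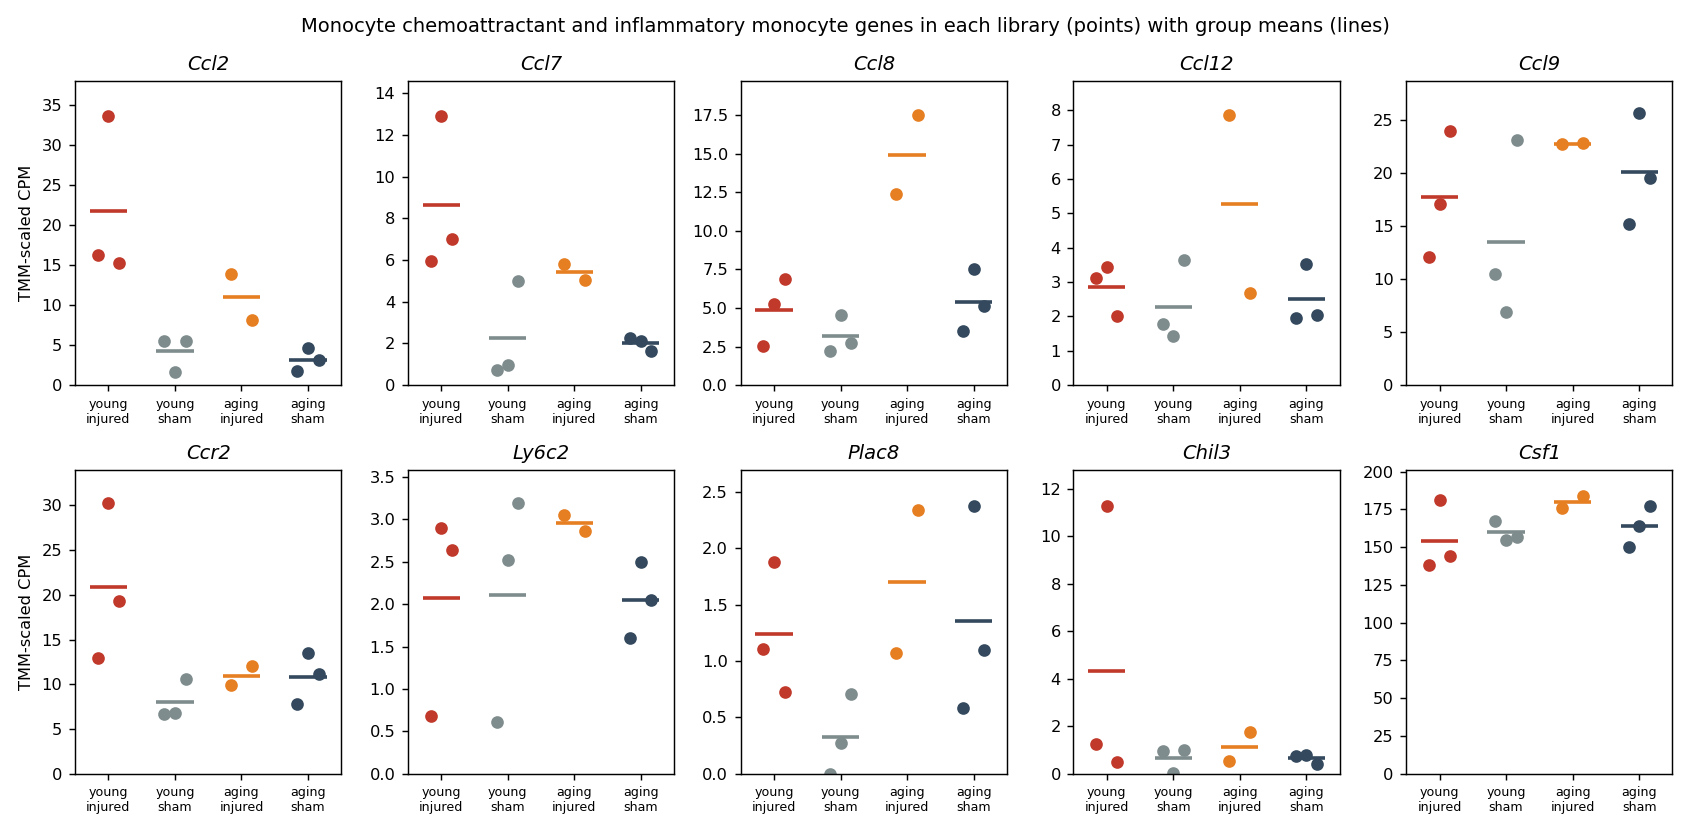
TMM-scaled CPM (vertical axes, linear, from 0) of the 10 genes in every library (points) with group means (lines), with young injured, young sham, aging injured and aging sham valves from left to right. Ccl2 lies between 8.10 and 33.6 CPM in injured valves and between 1.66 and 5.56 CPM in sham valves, the Ccr2 mean is highest in young injured valves, and Csf1 stays between 138 and 184 CPM.

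The first comparison asked what injury did in young valves. Ccl2, the main ligand of CCR2, stood at 16.2, 33.6 and 15.3 CPM in young injured 1 to 3, against 5.48, 1.66 and 5.56 CPM in young sham 1 to 3. Every injured library was above every sham library, with young injured 2 the highest. The fitted group levels differed 5.13-fold, a log2 difference of 2.36 ± 0.51 (SE). The edgeR adjusted p was 0.101, just outside the threshold, which is that of the series' design text. DESeq2 put Ccl2 inside the threshold, with an adjusted p of 0.000444.

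Ccl7, another CCR2 ligand that also acts on CCR1 and CCR3, had 5.97, 12.9 and 7.01 CPM in young injured 1 to 3, against 0.725, 0.982 and 5.01 CPM in young sham 1 to 3. The groups did not overlap, though young sham 3 came close to young injured 1. The log2 difference was 1.96 ± 0.63 (edgeR adjusted p = 0.304). Without young sham 3 it was 3.33 and passed the threshold (adjusted p = 0.038), and with DESeq2 the adjusted p was 0.0598.

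The other 3 chemokine genes overlapped between young injured and young sham valves. Ccl8, in mice a ligand of CCR8, had 2.54, 5.26 and 6.85 CPM in young injured 1 to 3, against 2.20, 4.54 and 2.72 CPM in young sham 1 to 3, a log2 difference of 0.63 ± 0.42 (edgeR adjusted p = 0.72). Ccl12, a mouse CCR2 ligand, had 3.13, 3.44 and 2.01 CPM in young injured libraries, against 1.77, 1.44 and 3.63 CPM in young sham libraries. Ccl9, a CCR1 ligand of mouse macrophages, had 12.1, 17.1 and 23.9 CPM in young injured libraries, against 10.5, 6.93 and 23.1 CPM in young sham libraries. Within both groups replicate 3 was the highest for Ccl9, and the log2 differences of Ccl12 and Ccl9 were 0.33 ± 0.50 and 0.40 ± 0.39.

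Ccr2, the receptor gene, had 12.9, 30.3 and 19.3 CPM in young injured 1 to 3, against 6.70, 6.81 and 10.6 CPM in young sham 1 to 3. All injured libraries were above all sham libraries, again with young injured 2 the highest. The difference was 2.59-fold, or 1.38 ± 0.33 on the log2 scale, with an edgeR adjusted p of 0.136. It passed with DESeq2 (adjusted p = 0.00686), with library totals as the only scaling (0.0791), without the filter on low counts (0.0837), and without young injured 1 (0.0677) or young injured 3 (0.0864). Without young injured 2 it was 0.99 with an adjusted p of 0.524.

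Csf1, the macrophage growth factor gene, had 138, 181 and 144 CPM in young injured libraries, against 167, 155 and 157 CPM in young sham libraries. Young injured 2 was above all sham libraries and the other injured ones were below them, and the log2 difference was -0.05 ± 0.13.

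The monocyte markers had few counts. Ly6c2, which encodes the Ly6C antigen of classical monocytes, had 0.675, 2.90 and 2.64 CPM in young injured libraries, against 0.609, 2.52 and 3.19 CPM in young sham libraries. The groups covered nearly the same range, and the log2 difference was -0.02 ± 0.63. Plac8, a small cysteine-rich protein gene abundant in classical monocytes, had 1.11, 1.88 and 0.723 CPM in young injured libraries, against 0, 0.276 and 0.710 CPM in young sham libraries. The groups did not overlap, but young sham 1 had no count, which allows up to 0.0833 CPM (3 counts, counting error only), and the log2 difference was 1.93 ± 1.05 (edgeR adjusted p = 0.632). Chil3, which encodes the secreted chitinase-like protein Ym1, had 1.24, 11.3 and 0.503 CPM in young injured libraries, against 0.957, 0.0307 and 0.986 CPM in young sham libraries. The high value was that of young injured 2 alone, and the log2 difference of 2.73 ± 1.20 (adjusted p = 0.521) was 0.40 without that library.

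With edgeR, 0 of the 10 genes were called in young valves, against 0.418% of the 19366 genes tested. Of the 10, 4 had non-overlapping groups with injured above sham (Ccl2, Ccl7, Ccr2 and Plac8), against 9.54% of all genes, and 0 had injured below sham, against 5.07%. At an unadjusted p under 0.05 there were 4 genes higher in injured valves (Ccl2, Ccl7, Ccr2 and Chil3), against 6.25% of all genes, and 9.19% in either direction. The median log2 difference over the 10 was 1.00, against 0.01 over all genes tested. With library totals as the only scaling, the median of all genes moved to 0.126.

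Young injured 2 was the highest library of its group for 8 of the 10 genes, young sham 3 for 8 and aging sham 2 for 8. The mean log2 CPM of the 5 pan-leukocyte markers, as a deviation from the 11-library mean, was 0.91 in young injured 2, against -0.16 and -0.25 in the other young injured and -0.51, -0.76 and -0.13 in the young sham libraries. Neutrophil markers, which had low counts, reached 2.43 in young injured 2. Their summed level was 1.22, 11.6 and 3.68 CPM in young injured 1 to 3, against 6.84, 4.57 and 8.63 CPM in young sham 1 to 3, so young injured 1 and 3 lay below every young sham library. Ly6g, the defining neutrophil gene, had 0 counts in both injured groups. Mesothelial and adipocyte markers each had positive log2 differences for 6 of 6 genes in young valves, with medians of 0.86 and 0.76. Cardiomyocyte markers differed too, with -0.50, -0.95 and 1.35 in young injured libraries, against 0.15, 1.04 and 1.42 in young sham libraries. The part of these in the differences was not tested, except that with the cardiomyocyte mean as a covariate the log2 difference was 1.91 for Ccl2 and 1.22 for Ccr2.

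**Figure D2:**
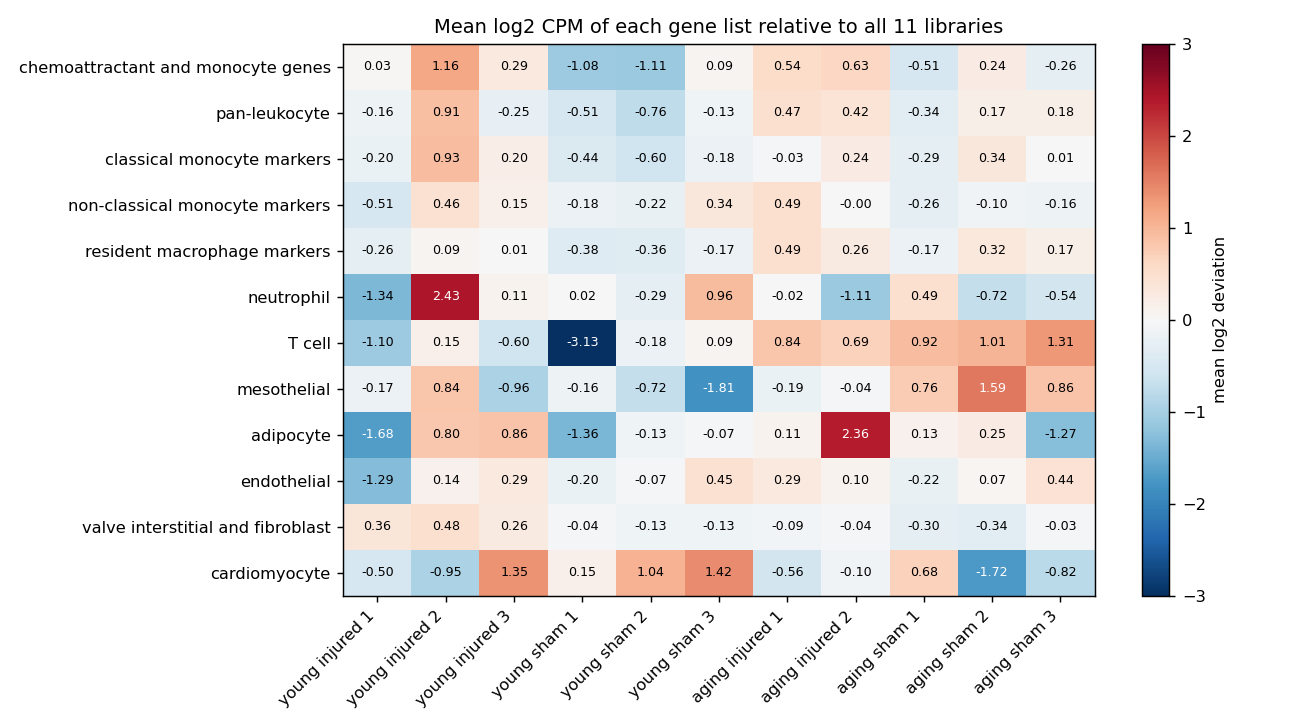
Mean log2 CPM of each gene list in each library relative to the mean of all 11 libraries (colour and printed value), with libraries in columns and the 10 recruitment genes in the top row. Young injured 2 has the highest value of the top row (1.16) and of the pan-leukocyte row (0.91), and young sham 1 and young sham 2 have the lowest of the top row.

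In aging valves the same question was asked with 2 injured and 3 sham mice. Ccl2 had 13.9 and 8.10 CPM in aging injured 1 and 2, against 1.80, 4.57 and 3.08 CPM in aging sham 1 to 3. The groups did not overlap, and the difference was 3.49-fold, or 1.80 ± 0.54 on the log2 scale (edgeR adjusted p = 0.399, and 0.0673 with DESeq2). Ccl7 had 5.82 and 5.06 CPM in aging injured libraries, against 2.24, 2.13 and 1.63 CPM in aging sham libraries. Both injured values were above those of every aging sham valve, and the log2 difference was 1.44 ± 0.68 (adjusted p = 0.58). It was 3.47 with a term for the 3 libraries of lowest detection. Both aging injured libraries carry that term, so its size comes from young sham 1 against young sham 2 and 3 alone. Values with it are therefore no adjustment for detection in aging valves.

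Ccl8 had 12.4 and 17.5 CPM in aging injured 1 and 2, against 3.51, 7.53 and 5.13 CPM in aging sham 1 to 3. The 2 aging injured libraries were the highest of all 11 for this gene. The difference was 2.77-fold, or 1.47 ± 0.45 on the log2 scale (edgeR adjusted p = 0.399). With DESeq2 it passed the threshold, with an adjusted p just under 0.1.

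Ccl12 had 7.88 and 2.69 CPM in aging injured libraries, against 1.96, 3.52 and 2.05 CPM in aging sham libraries. Aging injured 1 was high and aging injured 2 lay within the sham range. The log2 difference of 1.07 ± 0.55 was 0.10 without aging injured 1. Ccl9 had 22.7 and 22.8 CPM in aging injured libraries, against 15.2, 25.6 and 19.5 CPM in aging sham libraries, with overlap and a log2 difference of 0.18 ± 0.44.

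Ccr2 had 9.87 and 12.0 CPM in aging injured 1 and 2, against 7.79, 13.5 and 11.1 CPM in aging sham 1 to 3. The groups overlapped and the log2 difference was 0.01 ± 0.36. Csf1 had 176 and 184 CPM in aging injured libraries, against 150, 164 and 177 CPM in aging sham libraries, a log2 difference of 0.14 ± 0.14 with overlap at the lower injured value.

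Ly6c2 had 3.05 and 2.86 CPM in aging injured libraries, against 1.60, 2.50 and 2.05 CPM in aging sham libraries, without overlap, and a log2 difference of 0.53 ± 0.70. Its neighbour Ly6c1 also did not overlap, with 64.2 to 79.8 CPM in aging injured and 38.6 to 43.9 CPM in aging sham valves. Plac8 had 1.07 and 2.34 CPM in aging injured libraries, against 0.580, 2.38 and 1.10 CPM in aging sham libraries. Chil3 had 0.533 and 1.75 CPM in aging injured libraries, against 0.746, 0.802 and 0.425 CPM in aging sham libraries. Both overlapped, and their log2 differences of 0.34 ± 1.09 and 0.80 ± 1.26 were smaller than their errors. With the term for low detection the Plac8 value was 7.33 and the Chil3 value -0.15. The size of that term rests on young sham 1 alone, in which Plac8 had 0 counts.

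None of the 10 genes was called in aging valves, where edgeR called 0.0% of all genes tested, while 1710 genes had an unadjusted p under 0.05 and DESeq2 called 329. Of the 10, 4 had injured above sham without overlap (Ccl2, Ccl7, Ccl8 and Ly6c2), against 11.1% of all genes, 0 had injured below sham, against 16.7%, and 2 had an unadjusted p under 0.05 and were higher (Ccl2 and Ccl8), against 2.75%, and 8.83% in either direction. The log2 difference was positive for all 10, with a median of 0.66, against -0.01 over all genes tested. Other cell type markers differed between the same libraries. Adipocyte markers had positive log2 differences for 6 of 6 genes (median 1.90, 3 with an unadjusted p under 0.05), with summed levels of 65.8 and 428 CPM in aging injured valves, against 22.3 to 84.9 CPM in aging sham valves. Mesothelial markers had positive differences for 0 of 6 genes (median -1.22, 3 with an unadjusted p under 0.05), with 72.7 and 81.8 CPM in aging injured valves, against 119 to 224 CPM in aging sham valves. Pan-leukocyte markers were positive for 5 of 5 genes, with a median of 0.37. Their part in the differences was not tested.

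**Figure D3:**
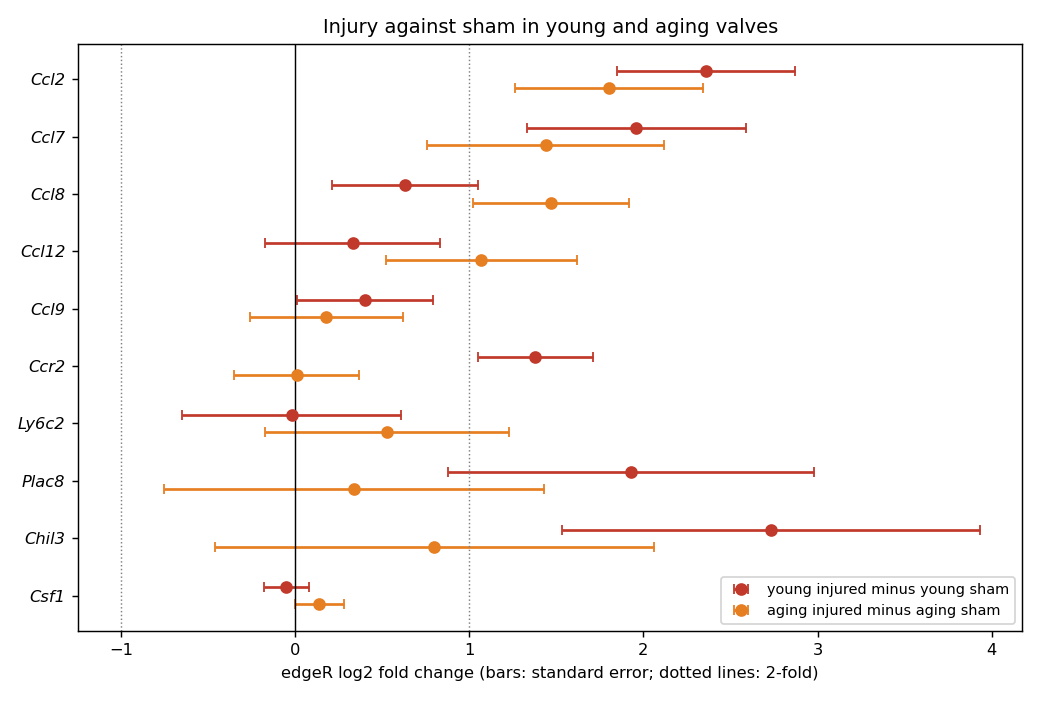
edgeR log2 fold change of injured against sham valves (horizontal axis) for each of the 10 genes, in young (red) and aging (orange) valves, with bars of 1 standard error and dotted lines at a 2-fold change. Ccl2 and Ccl7 lie to the right of the 2-fold line at both ages, Ccr2 at 1.38 in young and 0.01 in aging valves, and Ccl8 at 0.63 in young and 1.47 in aging valves.

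Averaged over both ages, Ccl2 rose by 2.08 ± 0.37 on the log2 scale, or 4.23-fold (edgeR adjusted p = 0.0404), and was 73rd by p among the genes tested. It was higher than all sham valves of its age in 5 of 5 injured valves. The call was lost without young injured 2 (adjusted p = 0.117), without aging sham 1 (0.128), without aging sham 3 (0.126) and when the 3 libraries of lowest detection had a term of their own (0.12), while the log2 fold change stayed between 1.85 and 2.27 with any 1 library left out. Ccl7 had a log2 difference of 1.70 ± 0.46 (adjusted p = 0.168) and Ccl8 1.05 ± 0.31 (0.212). Ccr2 had 0.69 ± 0.24 (0.291). Ccl2 was the 1 gene of 10 called, against 0.594% of all genes tested in either direction and 0.434% higher. At an unadjusted p under 0.05 there were 4 of 10 higher, against 6.02% of all genes, and 11.5% in either direction. All 10 log2 differences were positive, with a median of 0.88 against -0.01 over all genes.

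The counts of the 5 chemokine genes were also summed in each library, to see which gene carried them. These are shares of counts, not of molecules per length, and only differences between libraries are read from them. The sum was 39.9, 72.2 and 55.1 CPM in young injured libraries, against 20.6, 15.6 and 40.0 CPM in young sham libraries. It was 62.6 and 56.1 CPM in aging injured libraries, against 24.7, 43.3 and 31.4 CPM in aging sham libraries. The sum of young sham 3 just exceeded that of young injured 1, and the aging groups did not overlap.

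Ccl2 made up 40.5%, 46.4% and 27.8% of this sum in young injured 1 to 3, against 26.5%, 10.7% and 13.9% in young sham 1 to 3. In aging valves its share was 22.1% and 14.4% in injured 1 and 2, against 7.27%, 10.5% and 9.82% in sham 1 to 3. Injured shares exceeded sham shares at both ages. The Ccl8 share was 19.8% and 31.1% in aging injured valves, against 14.2%, 17.4% and 16.4% in aging sham valves, without overlap. In young valves its share was 6.36%, 7.27% and 12.4% in injured libraries and 10.7%, 29.2% and 6.80% in sham libraries, with overlap. The Ccl9 share was 30.3%, 23.7% and 43.4% in young injured libraries, against 50.7%, 44.6% and 57.7% in young sham libraries. It was 36.2% and 40.6% in aging injured libraries, against 61.5%, 59.1% and 62.1% in aging sham libraries, so that injured lay below sham at both ages. A share falls when other genes of the sum rise. The fitted Ccl9 level itself was not lower after injury, with log2 differences of 0.40 ± 0.39 in young and 0.18 ± 0.44 in aging valves. In a two-sided exact permutation test, p was 0.1 for the Ccl2 share in young valves and 0.2 in aging valves, which are the smallest values that 3 against 3 and 2 against 3 allow, and both were 0.4 after adjustment over the 24 tests of ratios and shares.

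**Figure D4:**
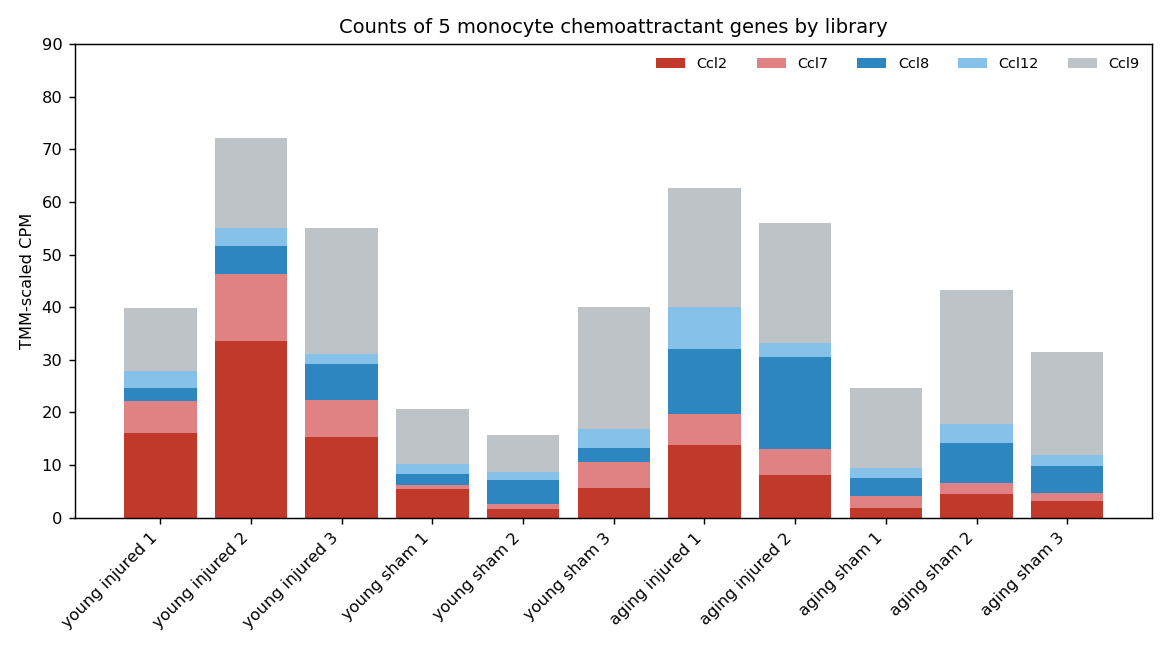
Summed TMM-scaled CPM (vertical axis, from 0) of Ccl2, Ccl7, Ccl8, Ccl12 and Ccl9 in each of the 11 libraries, 1 bar per library. The Ccl2 segment is between 8.10 and 33.6 CPM in the 5 injured libraries and at most 5.56 CPM in the sham libraries, and the Ccl8 segment is highest in the 2 aging injured libraries.

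Ccr2 was set against Ptprc, the gene of the pan-leukocyte antigen CD45, within each library, a ratio chosen after values were seen. The ratio of counts was 0.605, 0.686 and 0.743 in young injured 1 to 3, against 0.367, 0.376 and 0.387 in young sham 1 to 3. It was 0.287 and 0.566 in aging injured 1 and 2, against 0.438, 0.452 and 0.355 in aging sham 1 to 3. All young injured values were above those of every other library, and the aging groups overlapped. Against Csf1r, the CSF1 receptor gene of monocytes and macrophages, the Ccr2 ratio was 0.109, 0.155 and 0.152 in young injured libraries, against 0.0490, 0.0544 and 0.0710 in young sham libraries. In aging valves it was 0.0645 and 0.0724 in injured libraries, against 0.0715, 0.0891 and 0.0699 in sham libraries. The two-sided exact permutation p was 0.1 for both ratios in young valves, the smallest possible, and 0.4 adjusted over the 24 tests. In aging valves it was 1.0 for the first ratio and 0.6 for the second. The ratio of Ly6c2 to Ly6c1 counts overlapped between injured and sham valves at both ages, with means of 0.0459 and 0.0365 in young and 0.0418 and 0.0492 in aging valves.

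**Figure D5:**
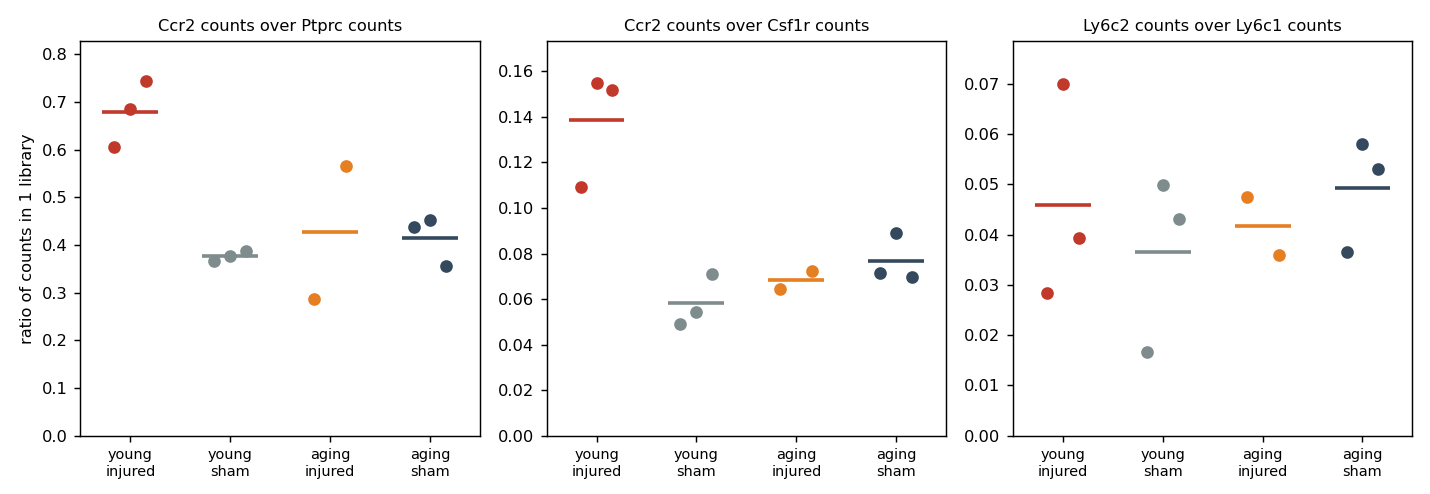
Ratios of counts within a library (vertical axes, from 0) for Ccr2 over Ptprc, Ccr2 over Csf1r and Ly6c2 over Ly6c1, with points for libraries and lines for group means. Young injured valves lie at 0.605 to 0.743 in the left panel and young sham valves at 0.367 to 0.387, while injured and sham values overlap in the aging valves of every panel.

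Age was compared next within each kind of surgery. In sham valves 0 of the 10 genes were called, against 0.0258% of all genes tested (0.0207% higher), and 0 of the 10 had non-overlapping groups, against 11.8% of all genes with aging above young and 9.08% with aging below. An unadjusted p under 0.05 was found for 0 of the 10, against 9.19% of all genes in either direction and 4.86% higher. Among the ligands the log2 difference of aging against young sham valves was -0.43 ± 0.50 for Ccl2, -0.15 ± 0.62 for Ccl7, 0.77 ± 0.42 for Ccl8, 0.14 ± 0.50 for Ccl12 and 0.58 ± 0.39 for Ccl9. It was 0.43 ± 0.32 for Ccr2, 0.04 ± 0.13 for Csf1, -0.03 ± 0.64 for Ly6c2 and 0.01 ± 1.16 for Chil3. Plac8 had the largest difference of the 10, 2.06 ± 1.05 (edgeR adjusted p = 0.587), with 129 counts in the aging sham and 27 in the young sham libraries. It was 1.37 without aging sham 2 and 3.27 without young sham 3. The Ccl7 difference was 1.23 without young sham 3. The median over the 10 was 0.09, against 0.02 over all genes.

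In injured valves no member passed the test for age. Ccl8 was 3.06-fold higher in aging than in young injured valves, a log2 difference of 1.61 ± 0.46, without overlap (edgeR adjusted p = 0.213, and 0.0366 with DESeq2). Ccl2, Ccl7 and Ccr2 were each lower in both aging injured valves than in all 3 young ones, with log2 differences of -0.98 ± 0.56, -0.66 ± 0.69 and -0.93 ± 0.37 (adjusted p = 0.499, 0.761 and 0.34). Called genes were 0 of 10, against 0.062% of all genes (0.0465% higher). At an unadjusted p under 0.05 there were 2 of the 10 in either direction, against 12.5% of all genes. Of these 1 was higher (Ccl8), against 4.48% of all genes, and 1 was lower (Ccr2). The 1 gene higher without overlap compares with 9.89% of all genes, and the 3 lower with 14.5%. The remaining log2 differences were 0.36 ± 0.43 for Ccl9, 0.88 ± 0.55 for Ccl12, 0.22 ± 0.14 for Csf1, 0.52 ± 0.70 for Ly6c2, 0.46 ± 1.09 for Plac8 and -1.92 ± 1.34 for Chil3. The Chil3 value was 0.40 without young injured 2. The Ccl7 value was 1.37 with a term for the 3 libraries of lowest detection, a term whose size rests on young sham 1 alone.

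Whether injury acted differently with age was tested as an interaction, the injury difference in aging valves minus that in young valves. For Ccr2 it was -1.36 ± 0.49 on the log2 scale (edgeR adjusted p = 0.544). For Ccl8 it was 0.84 ± 0.62 (adjusted p = 0.795), for Ccl2 -0.56 ± 0.74 and for Ccl7 -0.52 ± 0.92. Neither Ccr2 nor Ccl8 is therefore shown to respond differently at the 2 ages. Ccl12 had 0.74 ± 0.75, Ccl9 -0.22 ± 0.59, Csf1 0.18 ± 0.19, Ly6c2 0.55 ± 0.95, Plac8 -1.59 ± 1.52 and Chil3 -1.93 ± 1.74. Several of these turned in sign. Ccl7 turned to 1.94, Ccl9 to 0.45 and Plac8 to 6.0 with the term for low detection, whose size rests on young sham 1 alone. Ccl2 turned to 0.09 with the cardiomyocyte covariate, Chil3 to 0.40 without young injured 2 and Ccl12 to -0.24 without aging injured 1. edgeR called 0.0% of all genes here, with 1523 genes at an unadjusted p under 0.05 and 174 called by DESeq2, and 1 of the 10 (Ccr2) had an unadjusted p under 0.05, against 7.86% of all genes in either direction.

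Other ligands of the same families were compared as a list of 15 CC and CX3C chemokine genes, of which 14 were tested and 0 were called in any of the 6 comparisons. Over all genes tested, 0.0% to 0.594% were called in a comparison, so 0 calls in a list of this length is near that share. Cx3cl1, the membrane-bound chemokine that binds CX3CR1, had 96.8 ± 16.9 CPM in young injured and 62.6 ± 15.6 CPM in young sham valves (SD, n = 3 each), without overlap and with a log2 difference of 0.63 ± 0.18 (edgeR adjusted p = 0.224). In aging valves its log2 difference was 0.39 ± 0.20, also without overlap. Ccl24, an eosinophil chemoattractant, had 1.27 ± 0.85 CPM in young injured and 3.39 ± 1.65 CPM in young sham valves, with overlap (log2 difference -1.41 ± 0.56). Ccl11, which lies in the Ccl2 cluster and attracts eosinophils, had 4.54 ± 0.714 CPM in aging injured (n = 2) and 2.52 ± 1.11 CPM in aging sham valves (n = 3), and 1.53 ± 0.614 CPM in young injured and 2.55 ± 0.765 CPM in young sham valves (n = 3 each). Its interaction of 1.58 ± 0.68 had an adjusted p of 0.613, and in injured valves its age difference was 1.57 ± 0.50 (adjusted p = 0.259) without overlap. Ccl28, a mucosal chemokine, had 0 counts in the aging injured libraries and 56 in the aging sham libraries. By a bound of 3 counts over the group, which covers counting error only, it was at least 12.4-fold lower. Both aging injured libraries were of low detection and the aging sham ones were not, so injury and detection cannot be told apart here.

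Ccl6, the neighbour of Ccl9, had 27.9 ± 10.9 CPM in young injured and 22.2 ± 12.8 CPM in young sham valves (n = 3 each), and 44.7 ± 0.0481 CPM in aging injured (n = 2) and 36.3 ± 9.16 CPM in aging sham valves (n = 3). Its injury differences on the log2 scale were 0.34 ± 0.39 in young and 0.30 ± 0.43 in aging valves. Ccl5, a T cell and monocyte chemoattractant, had 1.65 ± 0.499 CPM in aging sham and 0.364 ± 0.235 CPM in young sham valves, without overlap (log2 difference 2.17 ± 1.00, adjusted p = 0.551).

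Of 8 other receptor and decoy genes, 7 were tested and 0 were called in any comparison, against 0.0% to 0.594% of all genes tested. Cx3cr1, the receptor gene of non-classical monocytes and resident macrophages, had 23.2 ± 11.2 CPM in young injured and 10.9 ± 3.64 CPM in young sham valves, without overlap (log2 difference 1.09 ± 0.39, edgeR adjusted p = 0.379). Its interaction was -1.31 ± 0.58, of the same sign as that of Ccr2 (adjusted p = 0.622). Ackr4, which encodes a scavenging decoy receptor, was lower without overlap in aging than in young valves after both operations. It had 7.50 ± 1.42 CPM in aging injured (n = 2) and 17.8 ± 3.07 CPM in young injured valves (n = 3), and 9.66 ± 3.11 CPM in aging sham and 22.0 ± 5.87 CPM in young sham valves (n = 3 each), with adjusted p of 0.179 and 0.246.

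Of 7 colony-stimulating factor and receptor genes, 5 were tested and 0 were called, against 0.0% to 0.594% of all genes tested in a comparison. All 5 had positive log2 differences after injury at both ages, with medians of 0.20 in young and 0.28 in aging valves. Over all genes tested, 51.5% of differences were positive in young and 48.6% in aging valves. Csf2rb, the common beta chain of the receptors for GM-CSF, IL-3 and IL-5, had 27.7 ± 11.7 CPM in young injured and 10.3 ± 5.38 CPM in young sham valves, with overlap (log2 difference 1.43 ± 0.39, edgeR adjusted p = 0.207). Il34, the other ligand of CSF1R, had a log2 injury difference of 0.30 ± 0.29 in aging valves. Csf3 had 0 counts in every group.

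Among 16 genes that induce or signal to monocyte chemoattractant genes, 0 were called in any comparison, against 0.0% to 0.594% of all genes tested. Il1r1, the receptor gene for interleukin 1, had 124 ± 3.69 CPM in young injured and 81.5 ± 7.99 CPM in young sham valves, without overlap, and an edgeR adjusted p of 0.0615, but its 1.52-fold difference was under the 2-fold threshold. Averaged over age its log2 difference was 0.41 ± 0.08 (adjusted p = 0.0794). Ptgs2, the inducible prostaglandin synthase gene, had 60.9 ± 15.7 CPM in aging injured (n = 2) and 30.9 ± 2.32 CPM in aging sham valves (n = 3), without overlap (log2 difference 0.98 ± 0.57). Il6 had 0 counts in the aging injured libraries, 230 in the young injured and 10 in the aging sham libraries, so it was at least 47.5-fold lower in aging than in young injured valves by the bound of 3 counts over the group. Both aging injured libraries were of low detection and the young injured ones were not, so age and detection cannot be told apart here. Jun and Fos, immediate early genes, had log2 age differences of -1.67 ± 0.50 and -1.60 ± 0.50 in sham valves (edgeR adjusted p = 0.391 and 0.409). The sham groups overlapped for Jun and not for Fos. In injured valves the Fos difference was -2.29 ± 0.60 (adjusted p = 0.18).

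Of 12 further classical monocyte markers, all tested, 2 rose in young injured valves, against 0.403% of all genes tested. Positive log2 differences were found for 11, against 51.5% of all genes, with a median of 0.84 against 0.01 over all genes. The list was chosen with earlier results of these data known, so these counts describe it and are no test of it. S100a4, a calcium-binding protein gene of motile cells, had 153 ± 47.9 CPM in young injured and 57.8 ± 18.6 CPM in young sham valves and rose 2.64-fold (edgeR adjusted p = 0.0978). Vcan, which encodes the proteoglycan versican, had 556 ± 101 CPM in young injured and 276 ± 6.18 CPM in young sham valves and rose 2.02-fold (adjusted p = 0.0644). Vcan is on the valve interstitial list too, where 7 of 8 log2 differences were positive with a median of 0.49. Which cells carried Vcan and S100a4 was not tested. In aging valves 0 of the 12 were called, against 0.0% of all genes tested. There 9 differences were positive, against 48.6% of all genes, and the median was 0.26 against -0.01. The interaction was -1.05 ± 0.29 for Vcan (adjusted p = 0.45) and -1.08 ± 0.45 for S100a4 (adjusted p = 0.6).

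Of 10 non-classical monocyte markers 9 were tested and 0 were called in any comparison, against 0.0% to 0.594% of all genes tested. Spn, the CD43 gene, had 11.9 ± 0.524 CPM in aging injured (n = 2) and 6.20 ± 1.62 CPM in aging sham valves (n = 3), without overlap (log2 difference 0.94 ± 0.45, edgeR adjusted p = 0.597). Itgal, an integrin gene, had a log2 difference of 1.40 ± 0.66 in young valves, with overlap. Nr4a1, the nuclear receptor gene that non-classical monocytes need, had log2 age differences of -1.53 ± 0.48 in sham and -1.54 ± 0.55 in injured valves (adjusted p = 0.413 and 0.302).

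Resident macrophage markers, 13 of 13 tested, had 1 call, averaged over age, where 0.594% of all genes tested were called and 0.434% were called higher. Cd68, a lysosomal glycoprotein gene of macrophages and monocytes, rose 2.16-fold averaged over age (log2 1.11 ± 0.22, edgeR adjusted p = 0.0657), without overlap at either age. It had 46.3 ± 18.9 CPM in young injured and 22.0 ± 2.76 CPM in young sham valves (n = 3 each), and 80.0 ± 25.0 CPM in aging injured (n = 2) and 36.2 ± 8.64 CPM in aging sham valves (n = 3). In young valves 11 of the 13 differences were positive with a median of 0.24, against 51.5% of all genes tested. In aging valves 9 were positive with a median of 0.38, against 48.6% of all genes tested. The fitted log2 age difference was positive for all 13 in sham and all 13 in injured valves, with medians of 0.41 and 0.40 and 0 calls. In sham valves the groups of most of these genes overlapped. An unadjusted p under 0.05 was found for 2 in sham and 5 in injured valves, against 9.19% and 12.5% of all genes in either direction. Over all genes tested, 52.3% of differences were positive in sham and 46.4% in injured valves. Mertk, a receptor gene for the uptake of dying cells, had 85.6 ± 17.6 CPM in aging injured and 53.5 ± 5.42 CPM in young injured valves, without overlap (adjusted p = 0.2).

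The genes with patterns most like that of Ccl2 over the 11 libraries were found by the root mean square difference of standardised log2 CPM, as a description with no test. They were Stmn1 (0.224), which encodes a microtubule-destabilising protein, Txndc11 (0.291), Mcm3 (0.319), a subunit of the replicative helicase, Psmg1 (0.325) and the long non-coding RNA 1190002F15Rik (0.335). Ccl7 was the 140th nearest gene to Ccl2, at 0.602, and Ccr2 the 212th, at 0.666. Nearest to Ccr2 were the pseudogene Rpsa-ps12 (0.261), Nsf (0.372), Fam102b (0.404), the kinesin gene Kif4 (0.407) and the tubulin gene Tubb2a (0.411). Ccl9 was nearest to its genomic neighbour Ccl6 (0.217), the shortest distance seen for any of the 10 genes.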

How the data were processed

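Deposited values were used for 11 libraries, 1 mouse each. Per the submitters' processing notes, the authors used TopHat2 2.1.0 and the mm10 build, and how reads were counted, with or without strand and on which annotation, is not given in the sources used here. The authors deposited raw counts for 46983 genes, and RPKM values without mitochondrial genes for 13526 genes, among them all 10 members. Among the library columns 1 had no matching label, and it was left out throughout.

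Counts were scaled by TMM and tested by quasi-likelihood in edgeR 4.0.16 (R 4.3.3), after filterByExpr with a minimum count of 10 (19366 genes), with 4 group means over all 11 libraries, no covariate and Benjamini-Hochberg adjustment over all genes tested. A gene was called, and is said to have risen or fallen, with more than a 2-fold change at an adjusted p below 0.1, as in the series' design text. Standard errors (SE) are the absolute log2 fold change over the square root of F. The common biological coefficient of variation was 0.377. CPM values are TMM-scaled, and list means used log2 CPM with a prior count of 2. The code was tested on simulated data. DESeq2 1.42.0, RLE factors, library totals, no filter, only the groups compared, a cardiomyocyte covariate, a term for the 3 libraries with fewest detected genes, the replicate block and leaving out each library were the alternatives. Both aging injured libraries were among those 3, so the size of that term came from young sham 1 against the other young sham libraries alone.

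The members and lists were chosen with earlier results of these data known, so their counts beside those of all genes are descriptions and not tests. Named were all members, from each pathway list the called genes or else 2 with the smallest p (in the text where they bear on the members), the near-identical partners, and the 5 genes nearest to Ccl2 and to Ccr2. Where Itgam had more than 1 row the one with the larger total was used. Counts of the libraries of a group differed by a chi-square of 21.3 to 236 per degree of freedom, so each was counted as 1 replicate. Bounds from 0 counts use 3 counts and cover counting error only. 1 gene of the receptor list is not reported here.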

Additional observations from a re-analysis of the deposited data

How the results depend on the processing

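Of 1120 alternative values for the 10 genes in the 6 comparisons, 1044 kept their sign and their side of the threshold, 18 passed it newly, 5 no longer passed it and 53 changed sign. The 5 were the Ccl2 call averaged over age, lost without 3 of the libraries in turn (adjusted p 0.117 to 0.128), with the low-detection term (0.12) and with the replicate block (0.12). The replicate numbers showed little sign of pairing the mice (same-number deviations correlated at -0.13 to 0.25 in 15 pairs, with 1 over 0.1). Groups this small cannot exclude that mice of the same number were handled together. With the replicate block edgeR called 60 genes averaged over age (115 without it) and 4 for age in injured valves (12 without it). Other counts of called genes moved with the tool, the filter and the libraries, and the cause was not tested. For injury in young valves (81) they were 268 with DESeq2, 139 with library totals, 11 with only the groups compared and 43 with the low-detection term, and 16 (without young injured 2) to 447 (without young injured 3) with 1 library left out, also under 54 without any 1 of the young sham libraries, aging sham 2 or aging sham 3. For injury in aging valves (0) they were 329, 1 with no filter, 3 with the term, and 0 to 261 (without aging injured 1). Averaged over age they were 402 with DESeq2 and 288 with the term, and 38 (without young injured 2) to 284 (without aging injured 1). For age in sham valves (5) they were 200, 14 with no filter, 13 with only the groups compared, 2 with the cardiomyocyte covariate, 1 with the term, and 1 to 10. For age in injured valves (12) they were 599, 7 with library totals, 38 with no filter, 0 with only the groups compared, 104 with the term, and 3 (without young injured 1 or aging sham 3) to 429 (without aging injured 1). For the interaction (0) they were 174 with DESeq2 and 0 with any library left out. Signs changed only for log2 differences that were not called. With library totals Csf1 was 0.07, Ly6c2 0.08 (young injury), Ccr2 -0.05 (aging injury) and Ly6c2 0.09 (age in sham). With the block Ly6c2 was 0.01 (young injury), and Ccl7 0.17, Ly6c2 0.21 and Chil3 -0.41 (age in sham). With the cardiomyocyte covariate Ly6c2 was 0.12 (young injury), Ccl7 0.06, Ccl12 -0.30, Csf1 -0.08, Ly6c2 0.22 and Chil3 -0.82 (age in sham), and Ccl2 0.09 (interaction). With the term Chil3 was -0.15 (aging injury), Ccl12 -0.01 (age in sham), Ccl7 1.37 (age in injured), and Ccl7 1.94, Ccl9 0.45 and Plac8 6.0 (interaction). Chil3 (age in sham) was -0.01 with DESeq2 and with RLE factors and -0.0012 with only the groups compared. With 1 library left out the ranges that crossed 0 were, for young injury, -0.19 to 0.03 (Csf1) and -0.46 to 0.41 (Ly6c2); for aging injury, -0.18 to 0.21 (Ccr2), -0.34 to 1.02 (Plac8) and -0.31 to 1.40 (Chil3); averaged over age, -0.02 to 0.08 (Csf1). For age in sham valves they were -0.57 to 1.23 (Ccl7), -0.18 to 0.64 (Ccl12), -0.02 to 0.10 (Csf1), -0.48 to 0.39 (Ly6c2) and -0.56 to 0.41 (Chil3). For age in injured valves they were -0.09 to 1.46 (Ccl12), -0.22 to 0.91 (Plac8) and -3.02 to 0.40 (Chil3), and for the interaction -0.85 to 0.10 (Ccl9), -0.24 to 1.31 (Ccl12) and -3.04 to 0.40 (Chil3). Leaving out 1 aging injured library left a group of 1, assumed to vary like the others. Ly6c2, Plac8 and Chil3 had 27 to 460 counts per group, and depth limits what can be said of them.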

Other observations

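The nearest patterns of the other members, looked up after values were seen, were also recorded over the 11 libraries as root mean square differences of standardised log2 CPM. Plac8 was nearest to the histone gene Hist2h3b (0.31). The Fc gamma receptor gene Fcgr1 (0.312) and the leukocyte integrin gene Itgal (0.321), which are on the classical and non-classical monocyte lists, came next. Ccl12 was nearest to the pseudogene Rpl38-ps2 (0.325). Irf9 (0.379), a transcription factor gene of the type I interferon response, and Slfn2 (0.41), a schlafen family gene, came next. Ccl8 was nearest to the small nuclear RNA gene Gm27343 (0.312) and to Ankrd66 (0.352), before Cxcl12 (0.439), which encodes a chemokine that binds CXCR4. Ccl7 was nearest to Cenpt (0.328) and Pgm1 (0.366), before Ahr (0.367), the aryl hydrocarbon receptor gene. The nearest member to Chil3 was Ccl2 (0.777), and young injured 2 was the highest library for both.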
